A study of Rattus norvegicus with 24 samples.

Results

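This account covers 10 genes of the intracellular calcium release machinery of the rat brain, measured on 24 Affymetrix Rat RAE 230 2.0 arrays. They are the ryanodine receptors Ryr1, Ryr2 and Ryr3, the inositol trisphosphate (IP3) receptors Itpr1, Itpr2 and Itpr3, the calcium pumps of the endoplasmic reticulum Atp2a2 (SERCA2) and Atp2a3 (SERCA3), and the FK506 binding proteins Fkbp1a (FKBP12) and Fkbp1b (FKBP12.6). The members were chosen with earlier results of these data known. They were matched to probe sets by symbol in the platform annotation, without use of their values, which gave 19 of 31042 probe sets. Of these, 12 probe sets of 8 genes had a mean signal at or above the median probe set (a mean of 137) and were tested; the 7 others, which include every probe set of Itpr2 and Itpr3, were dimmer and are given as levels.

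The endoplasmic reticulum of neurons holds calcium that is released through 2 families of channels. Ryanodine receptors open in response to calcium itself, and IP3 receptors open in response to IP3 made by phospholipase C together with calcium; SERCA pumps return the ion to the store. FKBP12 and FKBP12.6 bind the ryanodine receptor and steady its closed state, and ortho-substituted polychlorinated biphenyls (PCBs) are known to sensitise the receptor through this complex. In the cerebellum, Purkinje cells are known for a high content of the type 1 IP3 receptor, whose release of calcium takes part in synaptic plasticity.

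The series set a genetic and an environmental model of attention deficit hyperactivity disorder side by side. The spontaneously hypertensive rat (SHR, 8 rats), an inbred strain, has the Wistar-Kyoto rat (WKY, 8 rats) as its control strain; Sprague-Dawley rats exposed to PCBs (SD-PCB, 4 rats) have unexposed Sprague-Dawley rats (SD, 8 rats). All 28 rats were males of postnatal day 55 to 65, and the mixture, dose and period of exposure are not given in the sources used here. Each of these 4 groups gave 1 array for each of 6 regions, namely the dorsal and the ventral striatum, the cerebellar vermis, the hippocampus, the prefrontal cortex and a midbrain piece of substantia nigra plus ventral tegmental area (VTA). The regions of a group came from the same rats, and the labels do not say if an array held the RNA of 1 rat or of several, so the p-values below measure how far regions (for strain groups) or groups (for regions) agree and not how far animals do.

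The labelled regions carried their own markers. All 5 tested medium spiny neuron markers were higher in both striatal regions, all 3 hippocampal neuron markers in the hippocampus, all 4 dopamine neuron markers in the substantia nigra/VTA, and all 5 Purkinje cell and 3 granule cell markers in the vermis. A marker can pass the filter on mean signal through its own region alone, so these counts are in part set by the filter. For Slc6a3 no array outside the substantia nigra/VTA passed 122 (SD vermis), which lies under the filter of 137. Still, 2 arrays stood apart. The WKY prefrontal array gave 2297 for the granule cell gene Gabra6 and 668 for the Purkinje cell gene Pcp2, against 28.8 to 97.0 and 29.4 to 76.2 on the other 3 prefrontal arrays, which is 10.3% and 5.56% of the WKY vermis signal. The SD-PCB substantia nigra/VTA array gave 217 for Th and 955 for Slc6a3, both markers of dopamine neurons, against 1367 to 3742 and 5916 to 8411 on the other 3 arrays of that region. The median signal of an array ran from 132 to 178 in SHR, 109 to 153 in WKY, 89.0 to 126 in SD-PCB and 131 to 184 in SD, so array brightness moved with the groups. No scan date or batch is given, and a batch cannot be told apart from a strain group where it coincides with one.

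The promoters of 3 members with called regional differences are shown as examples: Atp2a3 and Itpr1, highest in the vermis on all arrays of that region, and Ryr3, highest in the striatum. Each line gives 300 bases of the RefSeq annotation of GRCr8, from 250 bases before to 50 after the start, 5′ to 3′ on the gene's strand. Capitals mark GGGCGG, the core of the GC box, on either strand; overlapping matches run together. The windows are chr10:58080402-58080701 (+) for Atp2a3, chr4:142743190-142743489 (+) for Itpr1 and chr3:120433416-120433715 (-) for Ryr3. The Atp2a3 window lies inside the gene interval given below. A second Ryr3 window of the annotation, chr3:120157522-120157821 (-), is not shown and held 1 match to GGGCGG.
Atp2a3: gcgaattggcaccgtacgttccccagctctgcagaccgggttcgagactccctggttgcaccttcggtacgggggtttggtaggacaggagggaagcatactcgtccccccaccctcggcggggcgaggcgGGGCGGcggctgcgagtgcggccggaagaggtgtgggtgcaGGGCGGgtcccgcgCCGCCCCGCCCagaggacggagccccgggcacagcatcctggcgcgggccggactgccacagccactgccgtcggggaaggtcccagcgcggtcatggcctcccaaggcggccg
Itpr1: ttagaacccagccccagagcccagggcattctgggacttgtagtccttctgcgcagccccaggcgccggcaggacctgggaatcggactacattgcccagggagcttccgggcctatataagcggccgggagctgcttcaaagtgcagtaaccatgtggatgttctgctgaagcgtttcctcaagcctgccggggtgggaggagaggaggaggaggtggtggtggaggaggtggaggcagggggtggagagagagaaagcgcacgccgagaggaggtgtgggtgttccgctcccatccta
Ryr3: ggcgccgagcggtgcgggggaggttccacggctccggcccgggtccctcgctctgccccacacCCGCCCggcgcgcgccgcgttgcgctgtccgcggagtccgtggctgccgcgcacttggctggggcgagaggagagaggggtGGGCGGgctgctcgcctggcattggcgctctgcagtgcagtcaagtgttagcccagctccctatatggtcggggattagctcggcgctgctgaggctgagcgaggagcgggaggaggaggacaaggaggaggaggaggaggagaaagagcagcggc
The Atp2a3 window held 4 matches to GGGCGG, the Ryr3 window shown 2 and the Itpr1 window 0. Of all 33469 RefSeq promoters, 33.1% held at least 1. CCAAT, present in 37.5% of all promoters, was found once in the Atp2a3 and once in the Ryr3 window. TATAAA (14.2% of all promoters) and AGGTCA (16.2%), also searched on both strands, had 0 matches in these 3 windows. Matching letters describe the window only.

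**Figure D1:**
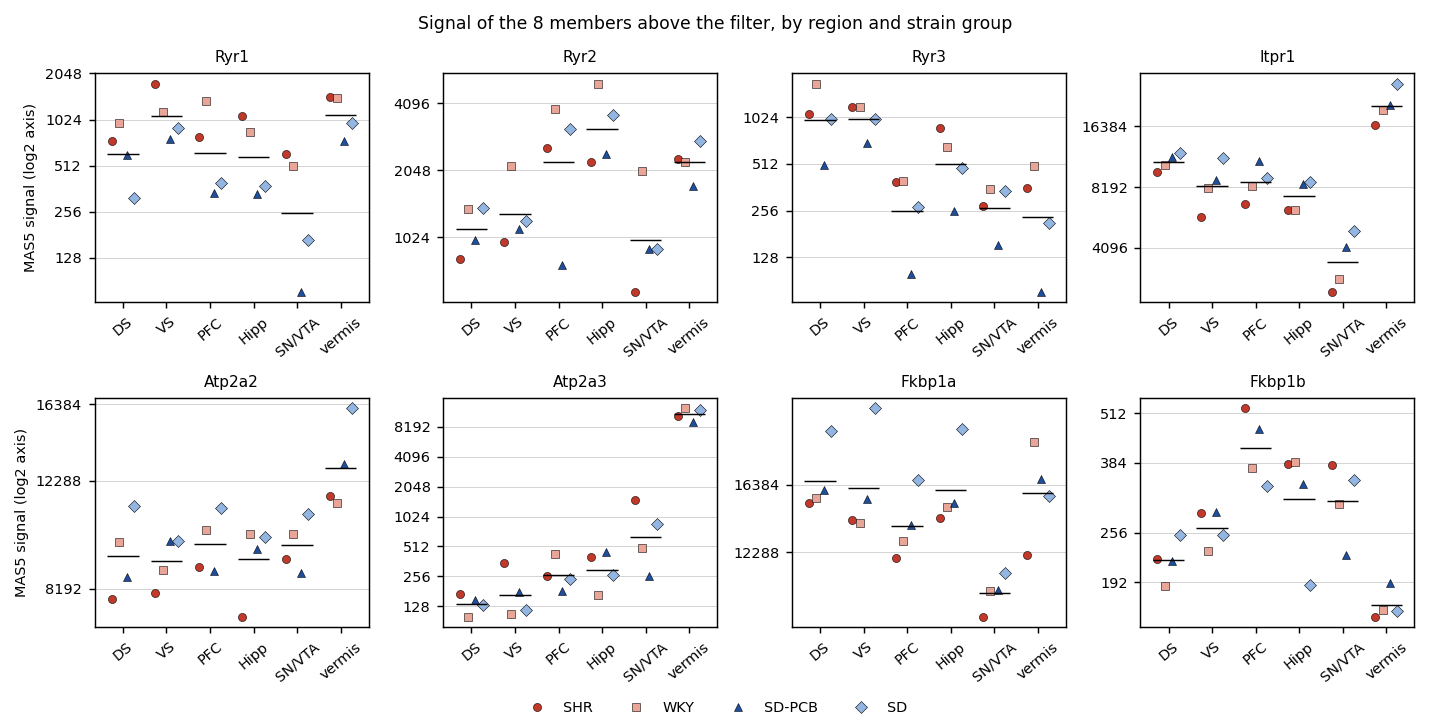
MAS5 signal (log2 axis) of the brightest probe set of each of the 8 tested genes on the 24 arrays, by region (DS dorsal striatum, VS ventral striatum, PFC prefrontal cortex, Hipp hippocampus). Each point is 1 array, coloured by strain group, and the bar is the mean over the 4 groups on the log2 scale. Atp2a3 lies between 9158 and 12594 in the vermis and between 101 and 1506 elsewhere, and the SD-PCB triangles of Ryr3 lie below the SD diamonds in all 6 regions.

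Region took a larger share of the variation than strain group in each of the 12 tested member probe sets. There are more regions than strain groups, which by itself favours a larger share for region. Under the filter the order differed between probe sets. Strain group took 46.3% and region 11.6% in Itpr3, against 28.3% and 30.7% in the brighter Itpr2 probe set. Of the sum of squares of log2 signal, region accounted for 93.4% in Atp2a3, 88.2% in Itpr1, 73.2% in Fkbp1b, 62.7% in Ryr3, 54.9% in Ryr2 and 47.4% in Ryr1, where strain group took another 39.2%. Each region was then compared with the mean of the other 5 by limma, with an adjusted p under 0.05 over all 15521 probe sets tested and a log2 difference of at least 1. In the vermis 2 of 12 member probe sets were higher and 3 lower, where 7.20% and 9.23% of all probe sets were. The median log2 difference of the 12 was 0.30, and that of all probe sets tested was 0.00.

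Atp2a3 encodes SERCA3, a pump with a lower calcium affinity than SERCA2 that is known from Purkinje cells, platelets and epithelia. Its gene lies at chr10:58079710-58111279 (GRCr8). The vermis gave 10459 in SHR, 12594 in WKY, 9158 in SD-PCB and 12037 in SD, and no array of another region passed 1506, the SHR substantia nigra/VTA. The vermis arrays therefore stood clear of the other 20. The log2 difference was 5.41 ± 0.29 (SE; limma adjusted p = 4.2e-13; higher in 4 of 4 groups), and the probe set does not owe its place above the filter to the vermis, since its mean over the other regions was 340. Below the vermis the substantia nigra/VTA averaged 781 ± 544 (SD, n = 4), the hippocampus 320 ± 129, the prefrontal cortex 276 ± 106, the ventral striatum 187 ± 110 and the dorsal striatum 138 ± 29.0, and each overlapped its neighbour in this order. Atp2a3 was lower than the mean of the other regions in the dorsal striatum (-2.19 ± 0.29, limma adjusted p = 5.1e-06) and the ventral striatum (-1.83 ± 0.29, limma adjusted p = 0.000142). In the prefrontal cortex the difference was -1.05 ± 0.29 (limma adjusted p = 0.011). The mean of the other regions held the vermis each time (mean log2 signal 13.4). Outside the vermis the mean log2 signals were 9.32 in the substantia nigra/VTA, 8.22 in the hippocampus and 8.04 in the prefrontal cortex. The ventral striatum had 7.39 and the dorsal striatum 7.09. The prefrontal cortex thus lay between other regions there, and these lower calls are in part set by the vermis signal. That prefrontal call ended under quantile normalization (-0.93), median centring (-0.89), array weights (-0.71) and without the SHR (-0.85), SD-PCB (-0.92) or SD (-1.01) arrays. The WKY prefrontal array, with its cerebellar transcripts, gave 426, against 180 to 259 on the other 3 prefrontal arrays.

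Itpr1, the main IP3 receptor of neurons, lies at chr4:142743401-143066505. Its vermis signals were 16724 in SHR, 19803 in WKY, 20870 in SD-PCB and 26752 in SD, all above the highest array elsewhere, which was 12079 in the SD dorsal striatum. At the other end, the substantia nigra/VTA gave 2472 in SHR, 2862 in WKY, 4118 in SD-PCB and 4973 in SD, all below every array of the other regions. Between these the dorsal striatum (10976 ± 1029, SD, n = 4), prefrontal cortex (8796 ± 1817), ventral striatum (8546 ± 2283) and hippocampus (7442 ± 1295) overlapped one another in turn. The log2 difference was 1.52 ± 0.09 in the vermis (limma adjusted p = 1.2e-12) and -1.58 ± 0.09 in the substantia nigra/VTA (limma adjusted p = 3.9e-12), each with 1 direction in 4 of 4 groups.

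Cerebellar neuron markers moved with these 2 genes. The summed signal of 5 Purkinje cell markers (Pcp2, Calb1, Car8, Ppp1r17 and Pvalb) was 60512 to 67206 in the vermis and 5671 to 10042 in the other regions. That of 4 granule cell markers was 31168 to 40899 in the vermis and 167 to 3671 elsewhere. Their part in the result was not tested, and in bulk tissue fewer cells of a type and less RNA per cell cannot be told apart. Without the WKY prefrontal array the count of member probe sets called in the vermis stayed at 5.

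The ryanodine receptors each had their own regional order. Ryr3, a type known from striatum, hippocampus and smooth muscle (gene at chr3:119886129-120433465), gave 1080 in SHR, 1688 in WKY, 506 in SD-PCB and 1003 in SD in the dorsal striatum and 1201, 1201, 696 and 1001 in the same order in the ventral striatum. The vermis gave 356 in SHR, 497 in WKY, 76.6 in SD-PCB and 213 in SD. Within each group both striatal arrays were above the vermis, the prefrontal cortex and the substantia nigra/VTA, although arrays of different groups overlapped. The log2 differences were 1.36 ± 0.18 in the dorsal striatum (limma adjusted p = 5.5e-06), 1.39 ± 0.18 in the ventral striatum (limma adjusted p = 1.1e-05) and -1.13 ± 0.18 in the vermis (limma adjusted p = 1.7e-05). Without the SD-PCB arrays the vermis difference was -0.91, short of the fold required. The 5 medium spiny neuron markers (Drd1, Drd2, Adora2a, Rgs9 and Ppp1r1b) summed to 20767 to 26347 in the dorsal striatum, 14010 to 18456 in the ventral striatum and 729 to 2256 in the other regions; their part in the result was not tested.

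Ryr2, the heart type and the most widespread one in brain, was highest in the hippocampus. There it gave 2234 in SHR, 5020 in WKY, 2424 in SD-PCB and 3638 in SD, and the hippocampus led in 3 of 4 groups. The substantia nigra/VTA (583, 2043, 910 and 909 in the same order) and dorsal striatum (821, 1378, 995 and 1380) were at the low end. The hippocampal log2 difference was 1.09 ± 0.21 (limma adjusted p = 0.00107), and neighbours in the order of regions overlapped throughout. A dimmer Ryr2 probe set (6.55 to 204) was also highest in the hippocampus in 3 of 4 groups.

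Ryr1, the skeletal muscle type, which Purkinje cells are also known to express, was lowest in the substantia nigra/VTA in 4 of 4 groups. That region gave 607 in SHR, 509 in WKY, 76.7 in SD-PCB and 167 in SD, and the log2 difference was -1.60 ± 0.23 (limma adjusted p = 9.0e-06). The vermis averaged 1144 ± 345 (SD, n = 4) and the ventral striatum 1144 ± 440. Their log2 differences of 0.95 ± 0.23 (limma adjusted p = 0.0014) and 0.93 ± 0.23 (limma adjusted p = 0.011) lay just under the fold required. Leaving out the SD-PCB substantia nigra/VTA array, which had few dopamine neuron transcripts, gave 3 member probe sets called in that region in place of 2. The share of all probe sets called in that fit is not given here. The 6 skeletal and heart muscle markers summed to 347 to 516 in the substantia nigra/VTA, 203 to 617 in the vermis and 591 to 1097 in the striatal regions. Of the 2 that were tested, Acta1 and Tnni3 were both lower in the vermis (-2.59 ± 0.43 and -3.34 ± 0.56), and Tnni3 was higher in the dorsal (3.66 ± 0.56) and the ventral striatum (2.06 ± 0.56), with limma adjusted p up to 0.0218. The muscle enzyme gene Ckm ran from 2.40 to 76.5. The part of these markers in the result was not tested.

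Atp2a2, the pump of nearly all cells, and Fkbp1a had several tested probe sets that did not move together in the vermis. For Atp2a2 (chr12:39733519-39782942) the brightest probe set averaged 13036 ± 2210 (SD, n = 4) in the vermis and 9426 ± 1051 in the other regions (SD, n = 20), and the second 12779 ± 1162 and 7748 ± 1449; both were highest in the vermis in 4 of 4 groups. The third, dim one averaged 319 ± 33.0 in the vermis and 490 ± 100 elsewhere and was lowest there in 4 of 4. The log2 differences were 0.46 ± 0.07, 0.74 ± 0.07 and -0.60 ± 0.15, with limma adjusted p of 9.3e-06, 1.2e-08 and 0.00235, all under the fold required. For Fkbp1a (chr3:160500748-160520492) the brightest probe set had a vermis difference of 0.14 ± 0.08 (limma adjusted p = 0.188). The other probe sets were lowest in the vermis in 4 of 4 groups. One averaged 583 ± 150 in the vermis and 1664 ± 524 elsewhere (-1.47 ± 0.13, limma adjusted p = 1.6e-09), and the last averaged 400 ± 119 and 1054 ± 326 (-1.36 ± 0.12, limma adjusted p = 1.3e-09). All 3 Fkbp1a probe sets were lower in the substantia nigra/VTA than in the mean of the other regions, with log2 differences of -0.60 to -0.65. All 3 also had their highest mean in the dorsal striatum.

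**Figure D2:**
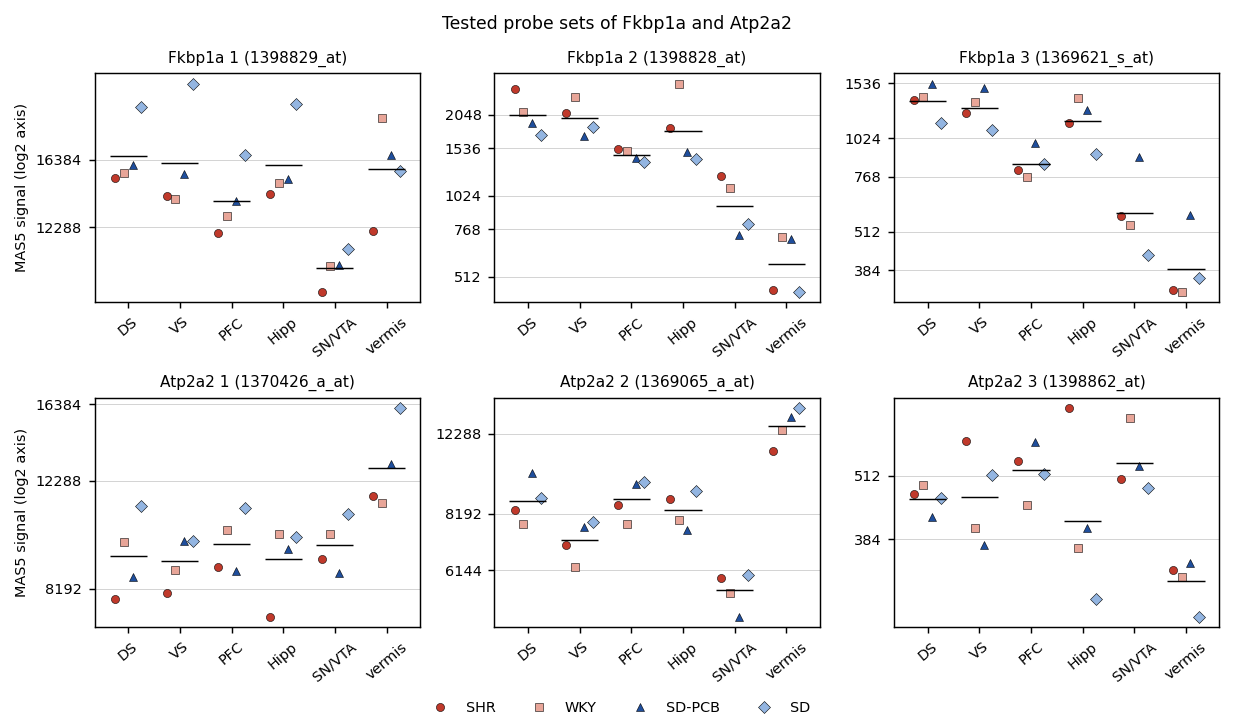
MAS5 signal (log2 axis) of the 3 tested probe sets each of Fkbp1a (top) and Atp2a2 (bottom) by region. Each point is 1 array, coloured by strain group, and the bar is the mean over the 4 groups on the log2 scale. Within a gene, probe sets are numbered by mean signal. In the vermis Fkbp1a probe sets 2 and 3 sit at their lowest in all 4 groups, while 1 does not, and Atp2a2 probe set 3 is lowest where the other Atp2a2 probe sets are highest.

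Fkbp1b, which binds Ryr2 in heart, had its highest mean in the prefrontal cortex, with 527 in SHR, 372 in WKY, 466 in SD-PCB and 336 in SD. The vermis was lowest in 4 of 4 groups, at 157, 163, 191 and 163 in the same order. The log2 differences of 0.75 ± 0.17 (limma adjusted p = 0.00244) in the prefrontal cortex and -0.82 ± 0.17 (limma adjusted p = 0.00039) in the vermis did not reach the fold required.

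The remaining regions had few calls among the 12 member probe sets. In the dorsal striatum 1 was higher (3.27% of all probe sets) and 1 lower (2.33%), in the ventral striatum 1 higher (1.71%) and 1 lower (0.503%), and in the prefrontal cortex 0 higher (2.92%) and 1 lower (2.15%). In the hippocampus 1 was higher (2.00%) and 0 lower (0.921%), and in the substantia nigra/VTA 0 were higher (3.01%) and 2 lower (4.97%). These are the Ryr2, Ryr3, Atp2a3, Itpr1 and Ryr1 calls given above. The lower Atp2a3 calls among them are relative to a mean that holds the vermis.

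**Figure D3:**
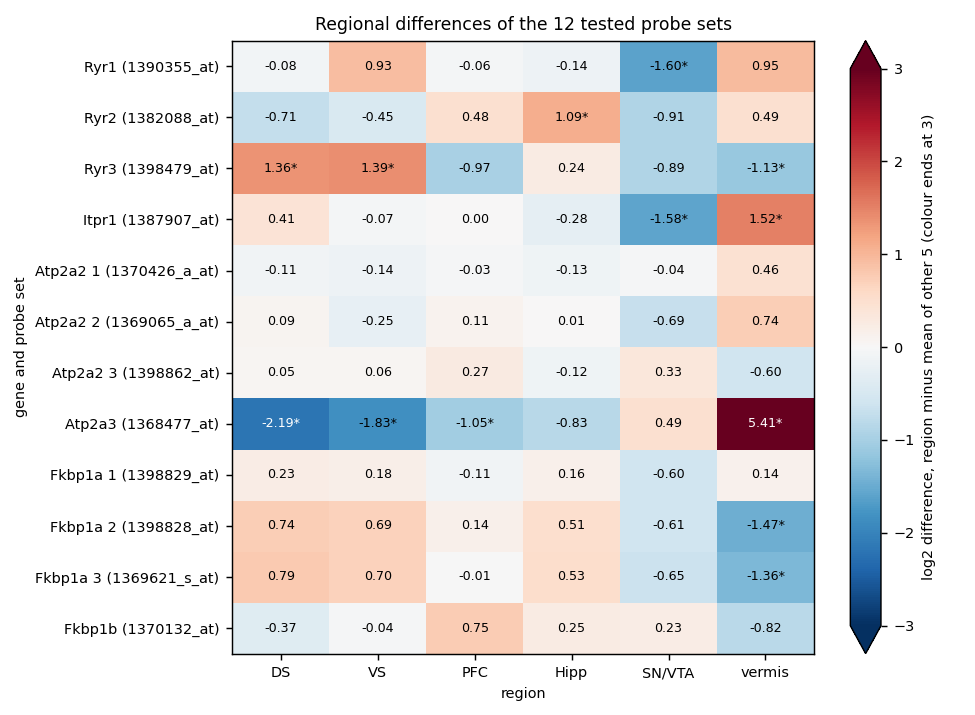
Log2 difference of each region from the mean of the other 5 for the 12 tested member probe sets (rows), with the value printed in each cell and an asterisk where the limma adjusted p was under 0.05 and the difference at least 1. The colour scale ends at 3. The vermis column runs from 5.41 for Atp2a3 to -1.47 for an Fkbp1a probe set.

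Itpr2 and Itpr3, the IP3 receptors known mainly from glia and from secretory epithelium, lay under the filter. The brighter Itpr2 probe set ran from 3.16 to 236 and the other from 5.0 to 118, and Itpr3 ran from 0.880 to 201. Arrays of neighbouring regions overlapped throughout. By group, the brighter Itpr2 probe set had medians of 109 in SHR, 88.1 in WKY, 70.9 in SD-PCB and 144 in SD, and Itpr3 38.5, 18.5, 13.9 and 78.5 in the same order. Both were lower in SD-PCB than in SD in 6 of 6 regions, by -1.64 ± 0.48 (limma adjusted p = 0.00925) for that Itpr2 probe set and -2.93 ± 0.72 (limma adjusted p = 0.00284) for Itpr3, on arrays whose dim probe sets were lower as a whole: with no filter on signal, 27.7% of all 31042 probe sets were called lower in SD-PCB. The other Itpr2 probe set was lower in 3 of 6 regions and higher in 3 (-0.58 ± 0.51, limma adjusted p = 0.386). Of the Atp2a2 probe sets under the filter, 1 (2.15 to 147) was lower in 5 of 6 (-1.76 ± 0.58, limma adjusted p = 0.0208). The other ran from 4.42 to 131, with a mean log2 signal of 4.79 in SD-PCB and 4.88 in SD. The Atp2a3 probe set under the filter ran from 1.12 to 86.2, with a mean log2 signal of 2.77 in SD-PCB and 4.33 in SD.

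Other genes of the same pathway were taken from lists chosen with earlier results of these data known, and 41 of them were tested. By the rule used for regions, 10 (24.4%) were higher and 3 (7.32%) lower in the vermis, where 7.20% and 9.23% of all probe sets were, with a median log2 difference of 0.24. The partners of the IP3 receptor included Car8, a carbonic anhydrase-related protein that binds the receptor and also stands among the Purkinje cell markers (5.51 ± 0.26), and Homer3, a postsynaptic scaffold (2.59 ± 0.28), whereas Homer1 was lower (-1.11 ± 0.09). Of 9 enzymes that make or remove IP3, 3 were higher and 2 lower. Plcb4, the phospholipase C of Purkinje cells, stood at 2.09 ± 0.24, the phosphatases Inpp5a at 2.02 ± 0.12 and Inpp1 at 1.33 ± 0.22, and the forebrain phospholipase Plcb1 at -1.31 ± 0.16. Of 11 store proteins, 3 were higher. They were Asph, whose products include junctin and junctate (2.35 ± 0.08), the calcium buffer Casq2 (2.34 ± 0.39) and the junctophilin Jph1 (1.25 ± 0.16). The store-operated channel gene Orai3 (1.09 ± 0.30) and the plasma membrane pump Atp2b3 (1.15 ± 0.16) were also higher, and the limma adjusted p of these genes ran up to 0.0045.

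**Figure D4:**
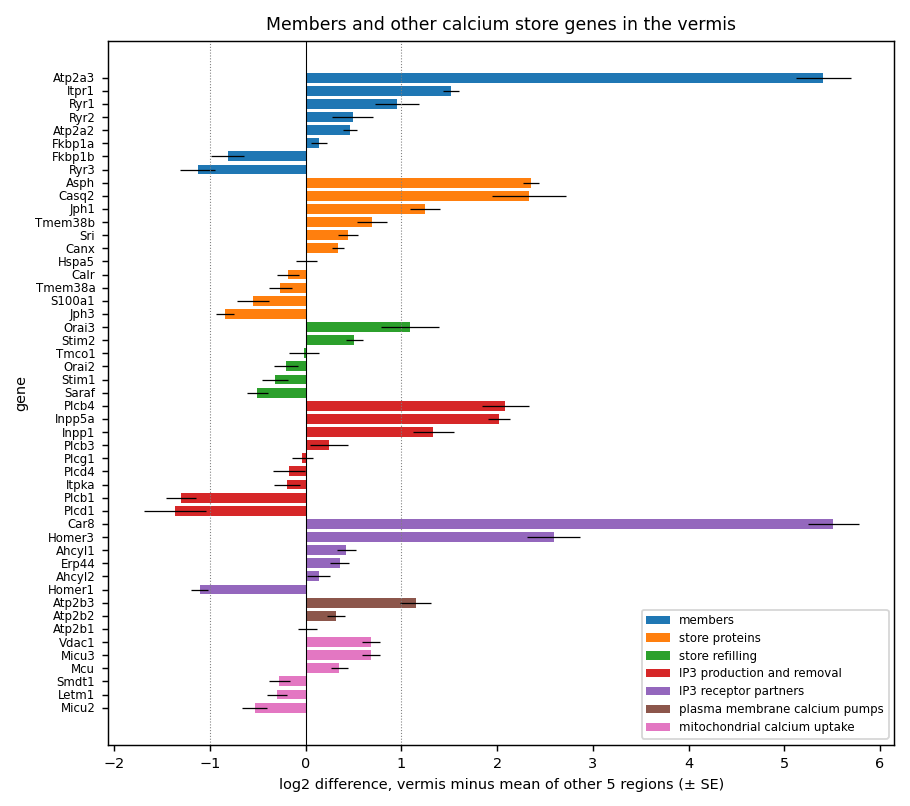
Log2 difference of the vermis from the mean of the other 5 regions (bars, ± SE of the limma fit) for the 8 tested members and 41 other calcium store genes, grouped by list; dotted lines mark a difference of 1 either way. Atp2a3 (5.41) and Car8 (5.51) reach farthest, and Itpr1 stands at 1.52 beside Plcb4 at 2.09 and Inpp5a at 2.02.

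In the substantia nigra/VTA, where Itpr1 and Ryr1 were lowest, 1 of the 41 pathway genes was higher and 4 were lower (2.44% and 9.76%, where 3.01% and 4.97% of all probe sets were); the store refilling and mitochondrial lists had 0 calls. Itpka, the neuronal kinase that phosphorylates IP3, was lower by the largest margin among them (-3.74 ± 0.14), followed by Homer1 (-1.81 ± 0.09), Jph1 (-1.74 ± 0.16) and the plasma membrane pump Atp2b1 (-1.23 ± 0.10), whereas Plcb4 was higher (1.02 ± 0.24; limma adjusted p up to 0.0024 among these 5).

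The genes whose log2 signal ran most alike over the 24 arrays were named by Pearson correlation among 8986 other genes. They were Asph (0.96), Hpcal1 (0.93) and Sdc1 (0.93) for Atp2a3, Mpp3 (0.88), Camk4 (0.87) and St3gal2 (0.86) for Itpr1, and Actn2 (0.86), Prp2l1 (0.86) and Sez6 (0.84) for Ryr3. For Fkbp1a they were Camk2b (0.95), Atp2b1 (0.89) and Rbfox1 (0.88), and for Atp2a2 Ddx3x (0.90), Nipsnap2 (0.86) and Rac1 (0.85). Ryr1 ran most like Clec16a (0.82), Ryr2 most like Hps3 (0.84) and Fkbp1b most like Necab3 (0.88). The points share arrays, rats and array brightness, so these values describe this set of arrays only.

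Exposure to PCBs was compared with its unexposed control strain, as the question of the environmental model. Of the 12 member probe sets 1 was higher and 4 lower in SD-PCB than in SD, where 14.8% of all probe sets were higher and 17.4% lower, and 3 of these 4 falls (Ryr2, Atp2a2 and Fkbp1a) changed direction under median centring. That centring moved the share of higher calls over all probe sets to 94.4%, against 45.9% without it. The members' median log2 difference was -0.15, and that of all probe sets was -0.01.

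Among the tested member probe sets Ryr3 had the largest difference; the Itpr3, Itpr2, Atp2a2 and Atp2a3 probe sets with larger ones were dim and lay under the filter. Its signals ran from 76.6 over a median of 203 to 696 in SD-PCB, against 213 over 412 to 1003 in SD. The ranges overlapped across regions, but within every region the SD-PCB array was the lower one, with log2 differences of -0.52 in the ventral striatum, -0.92 in the hippocampus, -0.99 in the dorsal striatum, -1.15 in the substantia nigra/VTA, -1.42 in the prefrontal cortex and -1.47 in the vermis. The mean was -1.08 ± 0.19 (limma adjusted p = 0.000177), and an exact sign-flip permutation over the 6 regions gave p = 0.031, the smallest it can give. Leaving out each region in turn kept it between -1.19 and -1.0. With the median of each array as a covariate the value was -1.17 and the adjusted p 0.55, and in that fit 0 of all 15521 probe sets passed; array median and group ran together. After centring on the array median it was -0.35 (limma adjusted p = 0.112), against a median log2 difference of 0.71 over all probe sets.

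Ryr2 was lower in SD-PCB in 5 of 6 regions. It ran from 770 over a median of 1058 to 2424 in SD-PCB, against 909 over 2083 to 3638 in SD. The prefrontal cortex stood apart, with 770 in SD-PCB, against 3156 in SD, a log2 difference of -2.03; the others lay between -0.67 and 0.00. The mean of -0.65 ± 0.23 (limma adjusted p = 0.0314) was -0.37 without the prefrontal cortex (limma adjusted p = 0.134). The call was also lost, at nearly the same size, without the dorsal striatum (-0.68, limma adjusted p = 0.0565) or the hippocampus (-0.66, limma adjusted p = 0.0755), and the direction turned under median centring (0.079). The exact sign-flip permutation gave p = 0.0625. The dimmer Ryr2 probe set, under the filter, had a mean log2 signal of 5.64 in SD-PCB and 6.06 in SD.

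Fkbp1a went both ways. The dimmest of its 3 tested probe sets (3) was higher in SD-PCB in 6 of 6 regions (578 over a median of 1122 to 1533 in SD-PCB, against 364 over 879 to 1145 in SD; 0.54 ± 0.12, limma adjusted p = 0.00171). The brightest probe set (1) was lower in 5 of 6 (10462 over 15283 to 16762 in SD-PCB, against 11228 over 18658 to 22688 in SD; -0.28 ± 0.09, limma adjusted p = 0.021), and that direction turned under quantile normalization (0.19), median centring (0.45) and the array median covariate (0.43). Probe set 2 gave 0.11 ± 0.13 (limma adjusted p = 0.546). The brightest Atp2a2 probe set was lower in 6 of 6 regions by a small margin (-0.24 ± 0.07, limma adjusted p = 0.0176), a direction that turned under median centring (0.49). The other Atp2a2 probe sets gave -0.09 ± 0.08 and 0.10 ± 0.15.

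The other members did not pass. Itpr1 had a log2 difference of -0.13 ± 0.09 (limma adjusted p = 0.275), Atp2a3 of -0.16 ± 0.31 (0.719), Ryr1 of -0.20 ± 0.24 (0.556) and Fkbp1b of 0.15 ± 0.18 (0.556). Atp2a3 spanned -1.73 in the substantia nigra/VTA to 0.79 in the hippocampus. The first of these values, 260 in SD-PCB, against 866 in SD, comes from the SD-PCB array with few dopamine neuron transcripts.

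Beside these differences, 4 of 5 astrocyte markers were lower in SD-PCB (summed signal 32383 to 66883 in SD-PCB, against 49211 to 73495 in SD), 3 of 3 tested endothelial markers were higher (2768 to 3871, against 1114 to 3177) and the blood gene Hbb was higher by 1.06 ± 0.12. The 6 smooth muscle and pericyte markers were all below the filter (summed signal 361 to 589 in SD-PCB, against 308 to 771 in SD). The part of these cell types in the results was not tested.

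Of the 41 other calcium genes 8 were higher and 4 lower in SD-PCB (19.5% and 9.76%, where 14.8% and 17.4% of all probe sets were), and 0 of 3 plasma membrane pumps were called. Among them 2 of 6 store refilling genes were higher, the store calcium sensors Stim2 (0.45 ± 0.09) and Stim1 (0.38 ± 0.15). Mitochondrial uptake had 2 higher and 1 lower of 6, with the uniporter pore Mcu at 0.85 ± 0.10, its regulator Micu3 at 0.43 ± 0.10 and the outer membrane channel Vdac1 at -0.62 ± 0.10. Store proteins had 2 higher and 2 lower of 11; the chaperone Hspa5 stood at -0.76 ± 0.11, sorcin (Sri), which binds ryanodine receptors, at -0.35 ± 0.11, Jph3 at 0.36 ± 0.10 and the potassium channel Tmem38b at 0.47 ± 0.17. Of 6 IP3 receptor partners 2 were higher, Ahcyl2 (0.56 ± 0.13) and Erp44, which inhibits the type 1 receptor from within the store (0.37 ± 0.10). Of 9 IP3 enzymes 1 was lower, Plcg1 (-0.38 ± 0.12). The limma adjusted p of these genes was at most 0.0497.

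**Figure D5:**
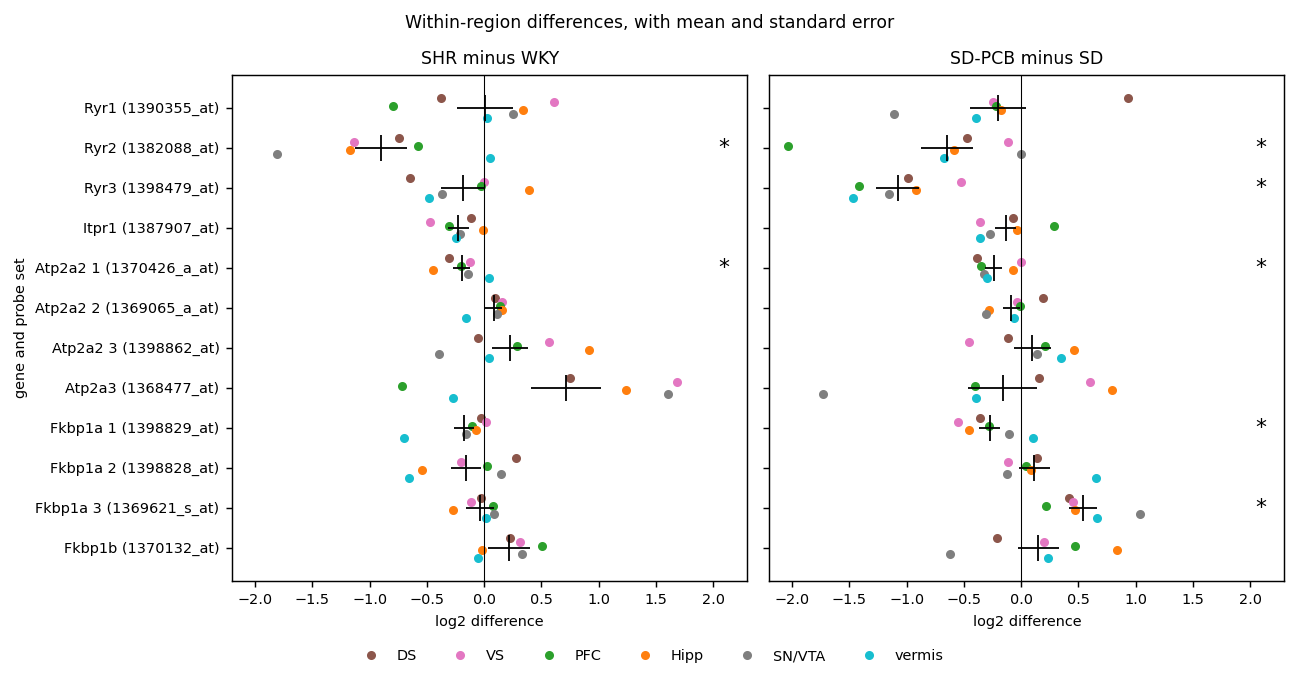
Log2 difference of SHR from WKY (left) and of SD-PCB from SD (right) within each of the 6 regions (coloured points) for the 12 tested member probe sets. The black tick and bar give the mean over regions ± SE of the limma fit, and an asterisk marks a limma adjusted p under 0.05. All 6 points of Ryr3 lie below 0 for SD-PCB minus SD, and 5 of 6 points of Ryr2 lie below 0 in both comparisons.

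The genetic model, SHR, was compared with its control strain in the same way. Of the 12 member probe sets 0 were higher and 2 lower in SHR than in WKY by limma, where 16.3% and 15.7% of all probe sets were, and 4 had an unadjusted p under 0.05. The median log2 difference of the members was -0.10, and that of all probe sets was 0.04.

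Ryr2 was the member with the clearest difference. It ran from 583 over a median of 1605 to 2588 in SHR, against 1378 over 2186 to 5020 in WKY. SHR was the lower one in 5 of 6 regions, most of all in the substantia nigra/VTA (583 in SHR, against 2043 in WKY, -1.81), and the vermis arrays were alike (2301 in SHR, against 2226 in WKY). The mean was -0.90 ± 0.23 (limma adjusted p = 0.00473), with an exact sign-flip permutation p of 0.0625. The dimmer Ryr2 probe set was lower in SHR in 6 of 6 regions, with 6.55 over a median of 24.1 to 93.4 in SHR, against 65.3 over 162 to 204 in WKY. With no filter on signal its log2 difference was -2.29 ± 0.45 (limma adjusted p = 0.000892), where 8.21% of all 31042 probe sets were called lower.

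The brightest Atp2a2 probe set was lower in SHR in 5 of 6 regions by a small margin (-0.20 ± 0.07, limma adjusted p = 0.0467). This call was lost in 12 of 20 alternatives, among them the fit without the WKY prefrontal array (-0.18, limma adjusted p = 0.105). The other Atp2a2 probe sets had higher mean log2 signals in SHR than in WKY. For the tested ones these were 12.99 in SHR, against 12.91 in WKY, and 9.00, against 8.78. Under the filter they were 6.31 in SHR, against 5.56 in WKY, and 5.25, against 3.36. Itpr1 was lower in SHR in 6 of 6 regions without passing the threshold (-0.23 ± 0.09, limma adjusted p = 0.062). Atp2a3 was at 0.72 ± 0.31 (limma adjusted p = 0.0766), with 1506 in SHR, against 493 in WKY, in the substantia nigra/VTA and 345 in SHR, against 107 in WKY, in the ventral striatum. In the prefrontal cortex, where the WKY array held cerebellar transcripts, it had the other sign (259 in SHR, against 426 in WKY). Ryr1 (0.01 ± 0.24), Ryr3 (-0.19 ± 0.19) and Fkbp1b (0.22 ± 0.18) had adjusted p of 0.375 or above.

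Marker lists of other cells moved with this comparison. All 4 meningeal markers (summed signal 3589 to 17125 in SHR, against 1987 to 6424 in WKY) and all 4 microglial markers (806 to 1699 in SHR, against 504 to 871 in WKY) were higher in SHR, and Hbb was higher by 1.71 ± 0.12. Of 5 astrocyte markers 2 were higher and of 3 tested endothelial markers 2. Their part in the results was not tested.

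Of the 41 other calcium genes 4 were higher and 8 lower in SHR (9.76% and 19.5%, where 16.3% and 15.7% of all probe sets were). Tmco1, a channel that lets calcium leave an overfilled store, was lower in SHR by the largest margin (-1.85 ± 0.16), with Stim2 as the other of 2 lower among 6 store refilling genes (-0.37 ± 0.09). Erp44 was lower (-0.76 ± 0.10), as 1 of 6 partners. Store proteins had 1 higher and 2 lower of 11, Tmem38a at 0.61 ± 0.13, Jph1 at -0.57 ± 0.17 and Tmem38b at -0.44 ± 0.17. IP3 enzymes had 2 higher and 1 lower of 9, Plcd4 at 0.69 ± 0.18, Inpp1 at 0.66 ± 0.23 and Plcb1 at -0.51 ± 0.17. Mitochondrial uptake had 1 higher and 1 lower of 6, Letm1 at 0.58 ± 0.11 and Micu3 at -0.42 ± 0.10. Atp2b3 was the 1 of 3 plasma membrane pumps that was lower (-0.44 ± 0.17; limma adjusted p at most 0.0473 among these genes).

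The 2 models were then set against each other as the SD-PCB minus SD difference less the SHR minus WKY difference, which share no array. Of the 12 member probe sets 1 was higher and 1 lower, where 18.4% and 22.3% of all probe sets were. Ryr3 was -1.08 in the PCB model, against -0.19 in SHR, a difference of -0.89 ± 0.27 (limma adjusted p = 0.0114). Fkbp1a probe set 3 was 0.54 in the PCB model, against -0.04 in SHR, a difference of 0.58 ± 0.17 (limma adjusted p = 0.0102). For Ryr2, lower in both models, the test found a difference of 0.25 ± 0.32 (limma adjusted p = 0.546). The Ryr3 difference was 0.17 after median centring (limma adjusted p = 0.6).

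Both inbred strains were also compared with SD, and these 2 comparisons share the SD arrays. In SHR 1 member probe set was higher and 3 lower than in SD (18.7% and 15.0% of all probe sets). In WKY 3 were higher and 3 lower (8.99% in each direction), and without the WKY prefrontal array 3 were called in all.

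Ryr1 was higher in both strains in 6 of 6 regions. It ran from 607 over a median of 933 to 1758 in SHR and from 509 over 1061 to 1421 in WKY, against 167 over 387 to 972 in SD. The difference was 1.19 ± 0.24 for SHR (limma adjusted p = 0.000732) and 1.18 ± 0.24 for WKY (limma adjusted p = 0.00145), each with an exact sign-flip permutation p of 0.031. In the substantia nigra/VTA Ryr1 gave 607 in SHR and 509 in WKY, against 167 in SD. The skeletal and heart muscle markers had a median summed signal of 632 in SHR and 553 in WKY, against 533 in SD.

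Itpr1 was lower in both strains in 6 of 6 regions. It ran from 2472 over a median of 6512 to 16724 in SHR and from 2862 over 8195 to 19803 in WKY, against 4973 over 10229 to 26752 in SD. The difference was -0.64 ± 0.09 for SHR (limma adjusted p = 2.2e-05) and -0.42 ± 0.09 for WKY (limma adjusted p = 0.00256). The WKY value was 0.01 after median centring and -0.20 after quantile normalization, so its direction depended on the scaling.

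Marker lists moved with these comparisons too. Of 5 astrocyte markers 2 were higher and 3 lower in SHR and 4 lower in WKY than in SD (summed signal 38062 to 52996 in SHR and 32356 to 62549 in WKY, against 49211 to 73495 in SD). Of 4 meningeal markers 0 were called in SHR and 4 were lower in WKY (3589 to 17125 in SHR and 1987 to 6424 in WKY, against 3279 to 20075 in SD). Of 3 tested endothelial markers 2 were higher and 1 lower in SHR, and 2 were lower in WKY; Hbb stood at 0.79 ± 0.12 in SHR and -0.93 ± 0.12 in WKY. The part of these cell types in the results was not tested. Of the 41 other calcium genes 7 were higher and 11 lower in SHR (17.1% and 26.8%, where 18.7% and 15.0% of all probe sets were). In WKY 5 were higher and 5 lower (12.2% in each direction, where 8.99% of all probe sets were).

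The other calls were smaller or differed between probe sets. The brightest Fkbp1a probe set was lower in SHR (-0.47 ± 0.09, limma adjusted p = 0.000414) and in WKY (-0.29 ± 0.09, limma adjusted p = 0.025), and probe set 2 was higher in WKY (0.47 ± 0.13, limma adjusted p = 0.0165). The WKY value of the brightest one turned to 0.15 under quantile normalization, 0.13 under median centring and 0.12 with the array median covariate. Atp2a2 was lower in SHR by its brightest probe set (-0.38 ± 0.07, limma adjusted p = 0.000555), and in WKY by another (-0.22 ± 0.08, limma adjusted p = 0.0494; 0.21 after median centring). Ryr3 was higher in WKY (0.55 ± 0.19, limma adjusted p = 0.048), and this call was lost in 11 of 20 alternatives.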

How the data were processed

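Each of 24 Affymetrix Rat RAE 230 2.0 arrays measured 1 region of 1 strain group. The deposited values are linear MAS5 intensities made by the authors; MAS5 is named per the submitters' processing notes, with no version given. The trimmed mean of an array, with 2% of values cut at each end, had a median of 500.2, so arrays had been scaled to a common level. RNA was purified with RNeasy and amplified with Ovation kits per the labels' protocols, and no detection calls were used.

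After removal of 57 control probe sets, 31042 remained, of which 20826 had 1 gene symbol in the platform annotation, 436 several and 9780 none. Signals were taken as log2(signal + 1), so differences of dim probe sets are understated. Probe sets with a mean signal at or above the median of 137 (15521) were fitted in limma 3.58.1 (R 4.3.3; lmFit, eBayes with trend) with strain group and region as terms, which left 15 residual degrees of freedom, and p-values were adjusted by Benjamini-Hochberg. A call needed an adjusted p under 0.05, and for a region also a log2 difference of at least 1. Exact sign-flip permutations over the 6 within-region differences were two-sided. The number of arrays limits the precision, and each strain group had 1 array a region. The fit was tested on simulated data.

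All member probe sets are reported; the other genes named came from pathway and marker lists, each by its brightest probe set with 1 symbol, where called, and the 3 most alike genes by correlation. The members and lists were chosen with earlier results of these data known. Alternatives were quantile, median centring and cyclic loess scaling, pseudocount 16, no filter or the upper 25%, no trend, array weights, 1 probe set per gene, other thresholds, fits of 2 groups, the array median as a covariate, and leaving out regions, groups or either array that stood apart (chosen after seeing the data). Gene positions and promoters are from RefSeq (GRCr8).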

Additional observations from a re-analysis of the deposited data

Results flagged for a closer look

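Over 64 groups of values searched for 1 value apart from the others, chance is known to flag about 1 in 20. For Ryr2 the SD-PCB minus SD difference in the prefrontal cortex, -2.03 on the log2 scale, stood apart from those of the other 5 regions. For the brightest Fkbp1a probe set the SHR minus WKY difference in the vermis, -0.70, stood apart in the same way, with 12115 in SHR, against 19632 in WKY. In the hippocampus the SD array of that probe set, at 20766, stood above the other 3 arrays, which ran from 14183 to 15125.

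The 2 models differed by test for 2 of 12 member probe sets, 1 higher and 1 lower, where 18.4% and 22.3% of all probe sets were. Ryr3 had a difference of -0.89 between the SD-PCB minus SD and the SHR minus WKY comparison (limma adjusted p = 0.0114), being lower in SD-PCB in 6 of 6 regions and lower in SHR in 5 of 6. After median centring the Ryr3 difference between the models was 0.17. The third Fkbp1a probe set by brightness had a difference of 0.58 (limma adjusted p = 0.0102), being higher in SD-PCB in 6 of 6 regions and higher in SHR in 3 of 6.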

How the results depend on the processing

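Of the regional calls 11 of 13 kept their direction and side of the threshold in all 14 or 15 alternatives, the exceptions being Atp2a3 in the prefrontal cortex and Ryr3 in the vermis. Ryr1 and Itpr1 in SHR minus SD did so in 20 of 20, and Ryr3 in SD-PCB minus SD in 18 of 20. The array median covariate, the fits of 2 groups and the sign-flip permutation were run for strain groups only. Regional and strain calls therefore faced unlike sets of alternatives, and their steadiness cannot be ranked. After centring on the array median, the median log2 difference of all probe sets was 0.71 in SD-PCB minus SD and -0.30 in SHR minus WKY. It was 0.13 in SHR minus SD, 0.46 in WKY minus SD and 0.97 between the models. For regions it was -0.32 in the vermis, 0.19 in the substantia nigra/VTA and 0.14 in the prefrontal cortex. The share of calls that were higher was 94.4% with centring and 45.9% without it in SD-PCB minus SD, 8.89% and 50.9% in SHR minus WKY, 68.7% and 55.6% in SHR minus SD, 94.6% and 49.98% in WKY minus SD, 96.2% and 45.3% between the models, 21.8% and 43.8% in the vermis, 59.6% and 37.7% in the substantia nigra/VTA and 75.5% and 57.6% in the prefrontal cortex. Between the models quantile scaling gave 55.9%.

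Directions reversed with centring for Ryr2 (0.079), the brightest Atp2a2 (0.49) and the brightest Fkbp1a probe set (0.45) in SD-PCB minus SD, for Itpr1 (0.0094), the second Atp2a2 (0.21) and the brightest Fkbp1a probe set (0.13) in WKY minus SD, and for Ryr3 between the models (0.17). The brightest Fkbp1a probe set also reversed under quantile scaling (0.19 in SD-PCB minus SD, 0.15 in WKY minus SD) and the array median covariate (0.43 and 0.12 in the same order). The cause was not tested.

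Of 12 member probe sets, 5 were called in SD-PCB minus SD, 2 in SHR minus WKY, 4 in SHR minus SD, 6 in WKY minus SD and 2 between the models. The counts below are also out of 12, except with no filter (out of 19) and with 1 probe set per gene (out of 8). Where no share or count over all probe sets stands beside a count, here, above or below, that count describes the setting and not the members. In SD-PCB minus SD the count was 8 with centring or no filter, 3 with cyclic loess or with the 2 groups alone, 2 without the trend and 0 with the array median as a covariate, where limma called 0 of all 15521 probe sets. Over all probe sets, centring gave 11583 calls of 15521 and no filter 11079 of 31042. In SHR minus WKY it was 8 with centring, 4 with array weights or an adjusted p of 0.1, and 1 with cyclic loess, no trend or the covariate. Centring called 6445 of all 15521 probe sets in that comparison. SHR minus SD had 7 with the 2 groups alone and 2 with quantile scaling or cyclic loess. WKY minus SD had 3 without the trend or the WKY prefrontal array, 2 with cyclic loess, 1 with quantile scaling and 0 with the covariate. Between the models it was 10 with centring, 7 with no filter, 1 with quantile scaling, cyclic loess or 1 probe set per gene, and 0 with the covariate. Over all probe sets, 10820 of 15521 were called between the models with centring and 13230 of 31042 with no filter. With a log2 difference of 0.5 the regional counts were 5, 5, 3, 3, 8 and 9 for dorsal and ventral striatum, prefrontal cortex, hippocampus, substantia nigra/VTA and vermis, in place of 2, 2, 1, 1, 2 and 5. The share of all probe sets under that looser fold was not counted. The vermis had 8 with no filter and 3 with 1 probe set per gene, and the prefrontal cortex 0 with quantile scaling, centring or array weights. With no filter 5483 of all 31042 probe sets were called in the vermis.

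Leaving out 1 region at a time gave 2 to 5 calls in SD-PCB minus SD, 1 to 3 in SHR minus WKY, 4 to 5 in SHR minus SD, 2 to 6 in WKY minus SD and 2 to 3 between the models. Leaving out 1 strain group at a time gave 2 each time in the dorsal striatum, 2 to 3 in the ventral striatum, 0 to 1 in the prefrontal cortex, 1 to 2 in the hippocampus, 2 to 3 in the substantia nigra/VTA and 4 to 6 in the vermis. Strain groups were paired by region throughout, since region is a term of every fit and the sign-flip permutations use within-region differences. Array signal limits the dim probe sets: Itpr2 and Itpr3 were not tested at the filter used.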
